A study of Mus musculus and Homo sapiens
Mus musculus with 14 samples.

Results

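The bipolar cell layer (BCL) of the mouse retina was compared with the ganglion cell layer (GCL) by Light-Seq, section by section. In the tissue, the BCL outline took in the cell bodies of bipolar neurons, Müller glia and horizontal cells, and the GCL outline those of retinal ganglion cells and of displaced amacrine cells. The comparison took the 4 BCL libraries and the 4 GCL libraries, which are 8 of the 12 layer libraries and belong to 4 of the 14 samples of the series. A gene entered the comparison when it had 20 or more UMIs (unique molecular identifiers, which mark separate cDNA molecules) summed over these 8 libraries, and 10785 of the 24460 genes listed did.

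Light-Seq writes barcodes with patterned light onto cDNA that was made in place in a fixed tissue section, so that regions outlined by hand under the microscope can be told apart after sequencing. The tissue was retina of a wild-type (WT) CD1 IGS mouse in the third postnatal week, with no treatment. The 4 sections came from 1 animal, and each was processed in a well of its own. In every section 1 barcode marked the outer nuclear layer (ONL, the rods and cones), another the BCL and another the GCL. The study calls the sections technical replicates, so p-values here measure the spread between sections and not the spread between animals.

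The BCL libraries held 193869 to 208437 UMIs and the GCL libraries 585655 to 785013, a mean ratio of 3.35 in favour of the GCL. Levels are given as CPM, UMI counts scaled to a common library size and corrected for library composition. A UMI was worth 5.16 CPM in the shallowest BCL library and 1.71 CPM in the shallowest GCL library, and low values are less certain in the BCL. Genes with a UMI numbered 12576 to 13142 in a BCL library and 15510 to 16543 in a GCL library, and the tested genes held 98.5% of all UMIs. Means are given ± SD over 4 libraries, and ONL means are on a scale set over all 12 libraries. Log2 fold changes are BCL over GCL ± SE, so that positive values are higher in the BCL. This SE was worked back from the fold change and the F statistic of edgeR's test. It can be too small where UMIs are few. Adjusted p-values are from edgeR's quasi-likelihood test with the section as a block, and a gene is called at an adjusted p under 0.05. A group said to be led by a gene had its smallest adjusted p there.

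Bipolar cells are the interneurons that carry the photoreceptor signal from the outer to the inner retina. They release glutamate from ribbon synapses in graded fashion, and the ON types read photoreceptor glutamate through the metabotropic receptor mGluR6, which closes the cation channel TRPM1. Müller glia span the retina, take up glutamate and potassium, and recycle chromophore for cones. Ganglion cells are the output neurons of the retina: they fire action potentials along the axons of the optic nerve, while displaced amacrine cells release GABA, acetylcholine or peptides within the inner retina. The layers therefore contrast graded bipolar with spiking ganglion cells, which differ in axon length, but the GCL also holds the displaced amacrine cells. The layers also contrast Müller cell bodies with astrocytes along the nerve fibres.

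The layers differed in a large share of the transcriptome. Of the 10785 genes tested, 4262 (39.5%) were called, 1879 (17.4%) higher in the BCL and 2383 (22.1%) higher in the GCL. Where a count of called members is given below without shares, these shares are its background. At least 4-fold differences were found for 741 genes of the GCL and 314 genes of the BCL. At least 8-fold differences numbered 307 for the GCL and 116 for the BCL. Genes were kept by their UMIs over all 8 libraries, of which the GCL ones were 3.35 times deeper, and 86 tested genes had no BCL UMI and 2 no GCL UMI. The BCL share of the calls was 44.1%, against 47.0% with libraries thinned to equal depth and 48.0% with edgeR's default filter. The 4 libraries of each layer did not overlap for 1484 of the BCL calls and 2092 of the GCL calls. These counts cover only genes called from the same libraries, and they add no support to the calls. In these bulk libraries, a lower level can mean fewer cells of a type or less RNA per cell, and these cannot be told apart.

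**Figure D1:**
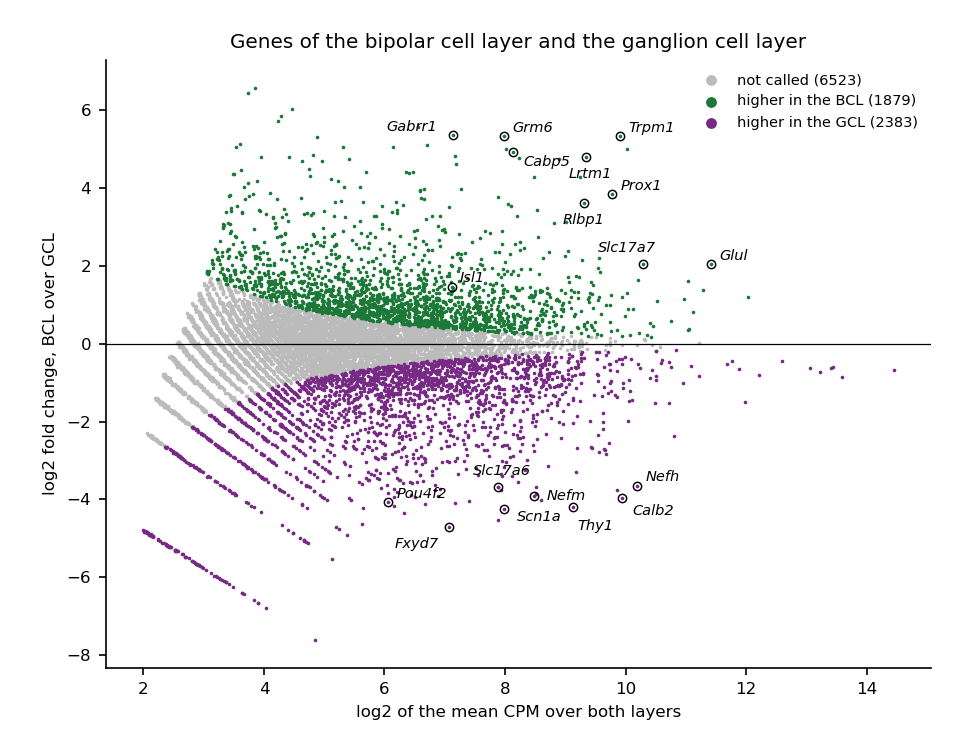
Log2 fold change (BCL over GCL) against the log2 of the mean CPM of both layers for the 10785 genes tested, with called genes in colour and 6523 uncalled genes in grey. Bipolar and Müller genes such as Trpm1, Grm6 and Glul lie at the upper right, ganglion genes such as Thy1, Nefh and Calb2 at the lower right, and the diagonal lines at the lower left are genes with few UMIs.

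The 12 genes with the largest BCL differences, among called genes with a mean of at least 50 CPM and the same direction in all 4 sections, had log2 fold changes from 4.77 to 5.58. In order of size they included A730046J19Rik, Gabrr1, Grm6, Trpm1, Sebox, Vsx1, Gm37583, Cabp5, Car8, Lrtm1 and Lactbl1. They hold the mGluR6 receptor and its channel (Grm6, Trpm1), a GABA receptor subunit of bipolar terminals (Gabrr1), homeodomain factors of bipolar cells (Sebox, Vsx1) and a calcium-binding protein (Cabp5). Gm37583 (chr4:136366893-136369379) lies on the same strand just past the end of Lactbl1 (chr4:136349932-136366421), and the pair may not be independent. The 12 genes at the GCL end ran from -3.96 to -4.70 and included Fxyd7, Ahnak2, Islr2, Scn1a, Thy1, Rbpms2, Nrn1, Pou4f2, Gpr26, Trarg1 and Calb2. They include a sodium pump modulator (Fxyd7), an axonal sodium channel (Scn1a), a surface glycoprotein (Thy1), RNA-binding and transcription factors of ganglion cells (Rbpms2, Pou4f2) and the calcium buffer calretinin (Calb2).

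The 4 genes that mark the layers were checked first. Trpm1, the cation channel of ON bipolar cells at chr7:63803583-63922019 (GRCm39), measured 1788, 1963, 1931 and 1823 CPM in BCL libraries 1 to 4 and 40.4, 75.3, 38.1 and 31.2 CPM in GCL libraries 1 to 4. Cabp5, a calcium-binding protein of bipolar cells at chr7:13132057-13142812, measured 596, 524, 435 and 608 CPM in the BCL and 14.8, 22.4, 23.2 and 9.17 CPM in the GCL. Both were higher in every BCL library than in any GCL library, with log2 fold changes of 5.33 ± 0.11 (adjusted p = 2.16e-69) for Trpm1 and 4.93 ± 0.17 (adjusted p = 6.66e-48) for Cabp5.

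Nefm, the medium neurofilament subunit at chr14:68320039-68362305, measured 44.3, 41.8, 35.02 and 56.95 CPM in the BCL libraries and 667, 667, 621 and 730.2 CPM in the GCL libraries. Thy1, a surface glycoprotein of ganglion cells at chr9:43954332-43959880, measured 73.9, 51.1, 30.01 and 75.9 CPM in the BCL and 1057, 1096, 985 and 1095 CPM in the GCL. Both were higher in every GCL library than in any BCL library, at -3.90 ± 0.15 (adjusted p = 5.59e-43) for Nefm and -4.19 ± 0.14 (adjusted p = 3.16e-50) for Thy1. The markers thus stood with their labelled layers, and none was absent from the other layer: Thy1 averaged 57.7 ± 21.6 CPM in the BCL and Trpm1 46.3 ± 19.8 CPM in the GCL. On the outer side, Trpm1 averaged 141 CPM in the ONL.

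**Figure D2:**
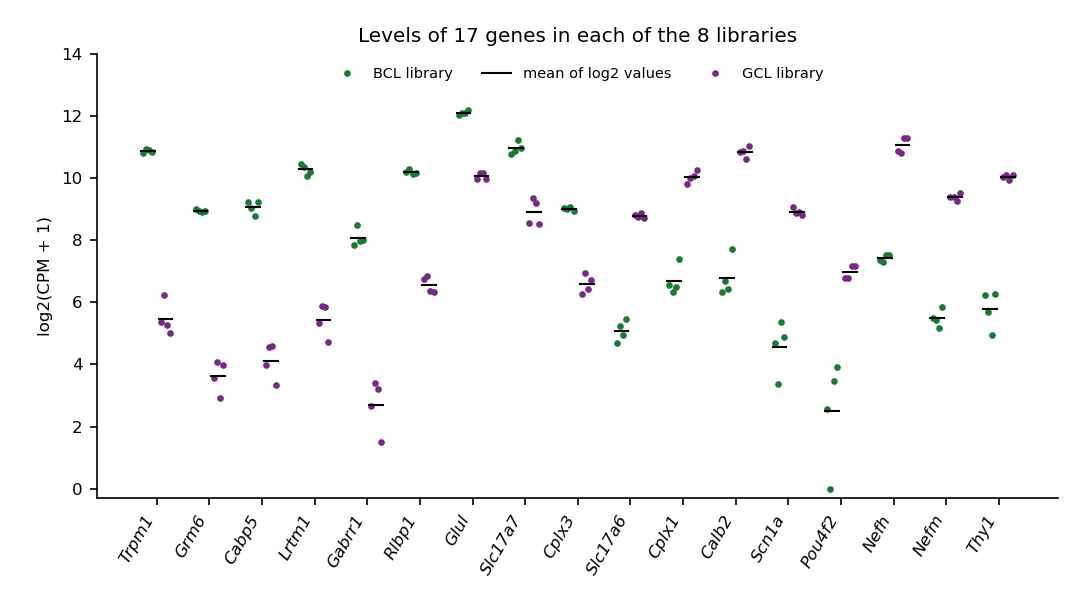
Level of selected genes as log2(CPM + 1) in each of the 4 BCL and 4 GCL libraries, with a bar at the mean of the log2 values. From Trpm1 to Cplx3 every BCL library lies above every GCL library, and from Slc17a6 to Thy1 every GCL library lies above every BCL library.

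Promoters of 6 genes from both sides are printed to show the letters in front of genes that part the layers. The sequences are from RefSeq's promoter table (GRCm38.p6) and were located by match on GRCm39, and bases inside the annotated gene are left out. They are written 5′ to 3′ on the gene's strand, and capitals mark TAATCC, a core that homeodomain factors of the CRX and OTX2 kind bind, and CAGCTG, an E-box core, each on either strand. The first 3 belong to bipolar genes, the next pair to complexin paralogues on opposite sides, and the last to a ganglion cell factor.
Trpm1 (chr7:63803333-63803582, plus strand): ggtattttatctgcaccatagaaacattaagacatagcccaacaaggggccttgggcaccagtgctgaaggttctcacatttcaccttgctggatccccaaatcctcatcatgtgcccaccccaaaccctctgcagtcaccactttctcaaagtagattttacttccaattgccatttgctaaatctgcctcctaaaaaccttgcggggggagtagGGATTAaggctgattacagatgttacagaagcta
Cabp5 (chr7:13131830-13132056, plus strand): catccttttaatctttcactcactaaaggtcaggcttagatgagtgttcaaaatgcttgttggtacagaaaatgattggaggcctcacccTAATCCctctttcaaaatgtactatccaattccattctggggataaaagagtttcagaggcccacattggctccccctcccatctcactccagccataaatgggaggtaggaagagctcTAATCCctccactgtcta
Grm6 (chr11:50741262-50741511, plus strand): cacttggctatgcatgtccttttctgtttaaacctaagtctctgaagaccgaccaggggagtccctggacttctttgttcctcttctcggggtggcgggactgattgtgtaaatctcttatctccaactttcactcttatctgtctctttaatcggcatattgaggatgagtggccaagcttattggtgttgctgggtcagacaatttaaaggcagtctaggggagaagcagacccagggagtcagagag
Cplx3 (chr9:57513576-57513814, minus strand): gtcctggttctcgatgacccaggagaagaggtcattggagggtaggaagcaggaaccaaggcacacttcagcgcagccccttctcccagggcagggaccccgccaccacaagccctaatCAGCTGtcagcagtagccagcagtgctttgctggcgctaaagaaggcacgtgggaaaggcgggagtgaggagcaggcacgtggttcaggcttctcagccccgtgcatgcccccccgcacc
Cplx1 (chr5:108697900-108698143, minus strand): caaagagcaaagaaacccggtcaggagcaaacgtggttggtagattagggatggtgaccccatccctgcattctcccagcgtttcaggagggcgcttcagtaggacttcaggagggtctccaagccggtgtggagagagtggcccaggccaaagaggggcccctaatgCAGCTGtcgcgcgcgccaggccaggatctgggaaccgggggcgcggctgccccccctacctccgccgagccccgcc
Pou4f1 (chr14:104705505-104705685, minus strand): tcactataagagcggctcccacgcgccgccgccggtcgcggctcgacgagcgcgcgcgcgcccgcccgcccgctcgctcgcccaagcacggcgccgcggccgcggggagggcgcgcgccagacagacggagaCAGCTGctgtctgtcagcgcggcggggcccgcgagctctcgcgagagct

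In the Trpm1 window TAATCC occurred once, as its reverse complement GGATTA, 34 to 29 bases before the start. Distances count from the RefSeq start, which lay 23 bases inside the annotated gene for Cabp5, 11 for Cplx3, 6 for Cplx1 and 69 for Pou4f1, so that the printed windows of these 4 genes end that many bases before it. The Cabp5 window held TAATCC at 160 to 155 and at 41 to 36 bases before the RefSeq start, and the Grm6 window held neither motif. The Cplx3, Cplx1 and Pou4f1 windows held CAGCTG at 131 to 126, 82 to 77 and 118 to 113 bases before the RefSeq start. Over the 250 bases before that start, TAATCC was in 7.44% of 1962 promoters of genes higher in the BCL and in 3.47% of 2508 promoters of genes higher in the GCL, against 5.06% of 10994 promoters of tested genes and 6.25% of all 32851 promoters in the table. The shares were 10.2% and 2.46% for genes with at least 4-fold differences. Among BCL-higher genes the share was 9.16% where the ONL mean exceeded the BCL mean and 5.60% where it did not. CAGCTG was in 13.1% of BCL-higher, 14.1% of GCL-higher and 12.2% of tested promoters, and ATTAAT, a homeodomain core searched on both strands that can share bases with TAATCC, in 2.55%, 2.07% and 2.02%. These shares are descriptions of letters, without a test.

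Most of the ON bipolar transduction cascade was higher in the BCL. Of its 13 members, all tested, 10 were higher in the BCL, 3 were not called and 0 were on the GCL side, against 17.4% and 22.1% of all tested genes, and the median log2 fold change was 3.42 against -0.05 for all tested genes. Grm6, the mGluR6 receptor at chr11:50741512-50757035, measured 517, 497, 480.2 and 489 CPM in the BCL and 10.8, 16.03, 6.62 and 14.7 CPM in the GCL. Its BCL libraries lay within a narrow range far above the GCL libraries, at 5.34 ± 0.18 (adjusted p = 2.66e-48).

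Partners of the receptor followed. Gpr179, the orphan receptor that anchors the deactivation complex at the dendritic tip, averaged 1157 ± 35.2 CPM in the BCL and 59.99 ± 11.98 CPM in the GCL (4.27 ± 0.11). Gnb3 and Gng13, the G protein beta and gamma subunits of ON bipolar cells, were higher in the BCL at 3.51 ± 0.20 and 4.69 ± 0.56. Nyx, the leucine-rich repeat protein nyctalopin, had 48 UMIs in the BCL and 3 in the GCL, a ratio of 48.5 after scaling by depth (95% exact interval of counting, 15.6 to 244).

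The other members included the 3 that were not called. Rgs11, a GTPase accelerator for the cascade, was higher in the BCL at 2.06 ± 0.21, while its close relative Rgs7 averaged 76.04 ± 4.89 CPM in the BCL and 103 ± 8.55 CPM in the GCL and was not called (-0.43 ± 0.20, adjusted p = 0.0802). Gnao1, the alpha subunit coupled to mGluR6, was abundant in both layers, at 1488 ± 73.6 and 1568 ± 34.6 CPM, and was not called (-0.08 ± 0.06, adjusted p = 0.373). Lrit3, a synaptic leucine-rich repeat protein made by photoreceptors, averaged 29.1 ± 7.65 CPM in the BCL, 21.02 ± 5.28 CPM in the GCL and 300.2 CPM in the ONL and was not called. Gnb5 (0.80 ± 0.14) and Rgs9bp (1.96 ± 0.17), which rods and cones also use, were higher in the BCL than in the GCL but had ONL means above their BCL means.

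The G protein families had members on either side. Among the beta subunits Gnb3 and Gnb1 (the rod form, 0.58 ± 0.06) were higher in the BCL, and Gnb2, a widely expressed form, was higher in the GCL (-0.98 ± 0.18). Of the 10 gamma subunits tested, 3 were higher in the BCL and 4 on the GCL side (30% and 40%, beside 17.4% and 22.1% of all tested genes). Of those 3, the rod form Gngt1 and the cone form Gngt2 had ONL means above their BCL means, and so did Gnb1. Gng4 averaged 9.67 ± 5.60 CPM in the BCL and 122 ± 8.37 CPM in the GCL (-3.63 ± 0.34), and the neuronal form Gng3 256 ± 22.6 and 653 ± 35.4 CPM (-1.35 ± 0.10). Of 15 regulators of G protein signalling, 4 were higher in the BCL and 7 on the GCL side (26.7% and 46.7%). Rgs16 was higher in the BCL (2.04 ± 0.32) and Rgs4 in the GCL (-3.35 ± 0.22). Rgs10 had 63 UMIs in the GCL and 0 in the BCL. Its ratio was 6.92 with the BCL set to a floor of 3 UMIs over its 4 libraries. Among CaBP calcium-binding proteins, 3 of 4 were higher in the BCL and 0 on the GCL side. Besides Cabp5, Cabp2 had 19 UMIs in the BCL and 1 in the GCL (ratio 57.6, interval 9.16 to 2395).

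Of 14 bipolar transcription factors, 11 were higher in the BCL and 1 on the GCL side, with a median log2 fold change of 4.10. The median was also 4.10 with Lhx3, which had no GCL UMI, set to the floor of 3 UMIs. Neurod4, a proneural factor at chr10:130104021-130116132, measured 1000.1, 951, 840.4 and 873 CPM in the BCL and 26.96, 48.1, 31.4 and 31.2 CPM in the GCL (4.74 ± 0.13, adjusted p = 1.93e-57). No GCL library came near a BCL library. Lhx4, a LIM factor of cone bipolar cells, averaged 281 ± 39.5 and 11.6 ± 7.85 CPM (4.61 ± 0.23). Lhx3, its paralogue, had 24 UMIs in the BCL and 0 in the GCL. The ratio was 24.3 against the floor of 3 UMIs over the GCL libraries.

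Otx2 and Crx, homeodomain factors shared with photoreceptors, were higher in the BCL than in the GCL at 3.59 ± 0.15 and 1.75 ± 0.09, and both had higher means in the ONL, 521 and 3533 CPM. Irx6, a factor of OFF bipolar types, went against the list. It measured 19.7, 46.4, 5.002 and 42.7 CPM in the BCL and 57.97, 73.7, 67.8 and 71.6 CPM in the GCL, every GCL library being above every BCL library (-1.23 ± 0.30, adjusted p = 0.000337). The other Iroquois factors stood on the same side or were not called: of 5 tested, 0 were higher in the BCL and 3 on the GCL side. Irx4 had 145 UMIs in the GCL and 0 in the BCL, a ratio of 15.9 at a floor of 3 UMIs. Irx2 had 101 and 1 (ratio 33.3, interval 5.84 to 1328). Irx5 averaged 19.2 ± 13.9 and 25.3 ± 8.73 CPM and was not called.

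Genes that divide bipolar cells into types lay mostly on the BCL side. Of 22 listed, 21 were tested: 14 were higher in the BCL, 3 in the GCL and 4 were not called, with a median log2 fold change of 2.24. Lrtm1, a transmembrane leucine-rich repeat gene, measured 1409, 1318, 1085 and 1187 CPM in the BCL and 39.1, 57.7, 56.3 and 25.7 CPM in the GCL (4.80 ± 0.12). Prkca, the protein kinase that marks rod bipolar cells, averaged 1011 ± 89.9 and 227 ± 12.3 CPM (2.16 ± 0.09), and Car8, another rod bipolar gene, 278 ± 30.4 and 9.76 ± 4.82 CPM (4.82 ± 0.23). Grik1, the kainate receptor subunit of OFF bipolar cells, reached 3.44 ± 0.13, and Scgn, the calcium sensor secretagogin of cone bipolar types, 4.42 ± 0.27.

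The 3 subtype genes higher in the GCL were Pcdh10, a protocadherin (-2.27 ± 0.15), Cpne9, a copine (-1.81 ± 0.27), and Slitrk5, a synaptic adhesion protein (-1.63 ± 0.31). Syt2, a synaptotagmin of some OFF cone bipolar cells, averaged 146 ± 25.5 and 162 ± 28.99 CPM and was not called. None of the 14 genes higher in the BCL had an ONL mean above its BCL mean. Horizontal cells were represented as well: all 4 horizontal cell factors were higher in the BCL, among them Onecut3 (4.71 ± 0.51), Lhx1 (4.31 ± 0.52) and Onecut2, which measured 88.7, 116, 155 and 104 CPM in the BCL and 28.3, 12.8, 56.3 and 9.17 CPM in the GCL (2.12 ± 0.25).

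The machinery of transmitter release split by synapse type. Of 13 genes of the ribbon synapse, 10 were higher in the BCL and 2 on the GCL side, with a median log2 fold change of 1.58. Of 19 genes of conventional release, 1 was higher in the BCL and 16 on the GCL side, with a median of -1.43. Cacna2d4 (3.29 ± 0.14) and Cacna1f (2.62 ± 0.17), subunits of the L-type calcium channel at ribbons, and Ctbp2, whose product includes the ribbon protein RIBEYE (2.20 ± 0.11), were higher in the BCL. The scaffolds Bsn (-0.78 ± 0.08) and Pclo (-0.39 ± 0.07), which ribbon and conventional active zones share, were the 2 members higher in the GCL.

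Paralogues with matching roles lay on opposite sides. Slc17a7, the vesicular glutamate transporter VGLUT1, measured 1739, 1898, 2426 and 2008 CPM in the BCL and 377, 659, 582 and 363 CPM in the GCL. Slc17a6, its ganglion cell counterpart VGLUT2, measured 24.6, 37.1, 30.01 and 42.7 CPM in the BCL and 445, 426, 465 and 420.1 CPM in the GCL. Neither gene overlapped between layers, and the fold changes had opposite signs, 2.04 ± 0.08 (adjusted p = 8.32e-45) and -3.69 ± 0.18 (adjusted p = 2.97e-35).

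The complexins, clamps and activators of vesicle fusion, split in the same manner. Cplx3 measured 522, 511, 535 and 489 CPM in the BCL and 75.5, 122, 84.4 and 105 CPM in the GCL (2.42 ± 0.12), and Cplx4 reached 1.54 ± 0.29. Cplx1 measured 93.6, 78.9, 90.04 and 166 CPM in the BCL and 906, 1022, 1074 and 1227 CPM in the GCL (-3.30 ± 0.12), and Cplx2 reached -2.84 ± 0.10. BCL library 4 stood above the other BCL libraries for Cplx1 but far below every GCL library.

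Vesicle glycoproteins, RIM scaffolds and calcium channel pores gave further such pairs. Stx3, the ribbon syntaxin, was higher in the BCL (1.91 ± 0.14). Sv2b was the 1 conventional release gene higher in the BCL (1.37 ± 0.11), with an ONL mean above its BCL mean, while Sv2a (-1.43 ± 0.10) and Sv2c (-3.68 ± 0.18) were higher in the GCL. Rims2 was higher in the BCL (0.67 ± 0.13) and Rims1 in the GCL (-2.58 ± 0.14). The P/Q-type pore Cacna1a (-2.90 ± 0.15) and the N-type pore Cacna1b (-2.25 ± 0.20) were higher in the GCL, and the T-type pore Cacna1h was higher in the BCL (2.47 ± 0.12). Synapsins Syn1 (-2.19 ± 0.09) and Syn2 (-3.53 ± 0.27), which ribbon synapses largely lack, and the vesicle SNARE Vamp1 (-3.02 ± 0.20) were higher in the GCL, whereas Syp, the vesicle protein synaptophysin, averaged 552 ± 24.3 and 577 ± 12.4 CPM and was not called. Of 15 synaptotagmins, 3 were higher in the BCL, Syt9 with the smallest p-value (2.32 ± 0.17), and 10 in the GCL, Syt7 with the smallest (-2.68 ± 0.15). The shares were 20% and 66.7%, beside 17.4% and 22.1% of all tested genes.

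**Figure D3:**
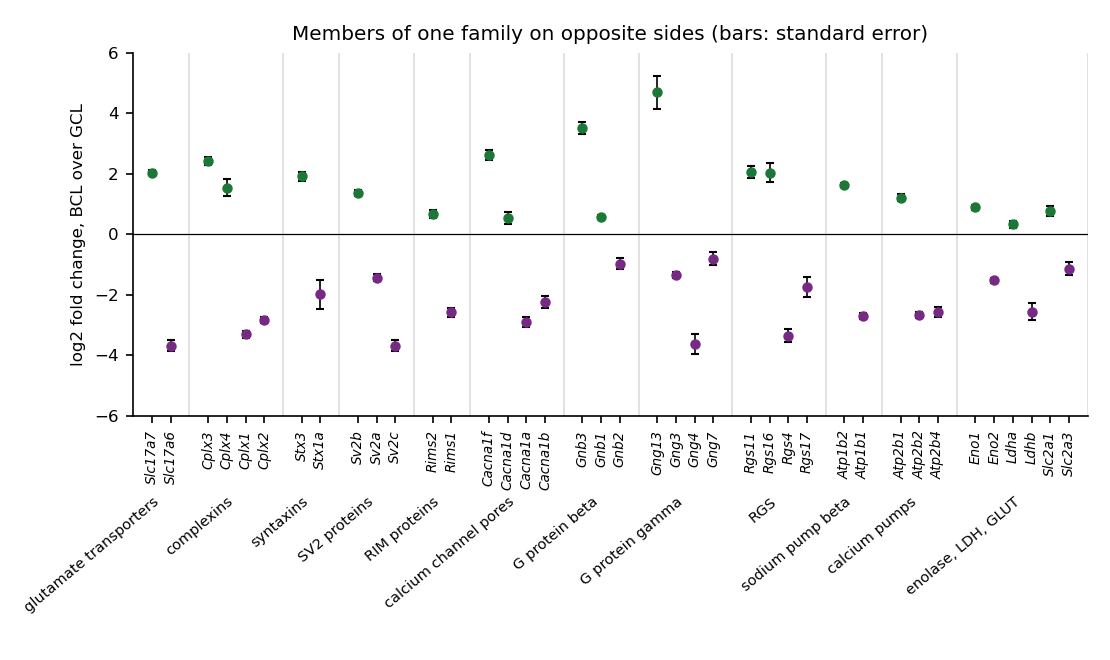
Log2 fold change (BCL over GCL) of called members of gene families that lie on opposite sides of 0, green above 0 and purple below. Bars are standard errors worked back from the F statistic. VGLUT1 (Slc17a7), Cplx3, Cplx4, Stx3 and Sv2b lie above 0 and VGLUT2 (Slc17a6), Cplx1, Cplx2, Sv2a and Sv2c below it. The members were picked for their signs and support no test.

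Rod genes and most of these ribbon genes had higher means in the ONL than in the BCL. Of the 10 ribbon genes higher in the BCL, 8 had a higher mean in the ONL than in the BCL, Cplx3 and Cacna2d4 being the exceptions, and Slc17a7 averaged 4629 CPM in the ONL. Of the 18 rod genes listed, 17 were tested and all 17 were higher in the BCL than in the GCL, with a median log2 fold change of 1.25, and the rod list held 1.83 to 2.89% of UMIs in BCL libraries, 0.656 to 1.098% in GCL libraries and 8.24 to 9.80% in ONL libraries. BCL library 3, which held the largest rod share, had the most Slc17a7 but the least Ctbp2 of the BCL libraries. Across all genes higher in the BCL, 948 of 1879 (50.5%) had an ONL mean above their BCL mean. The part of photoreceptor RNA in these results was not tested.

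**Figure D4:**
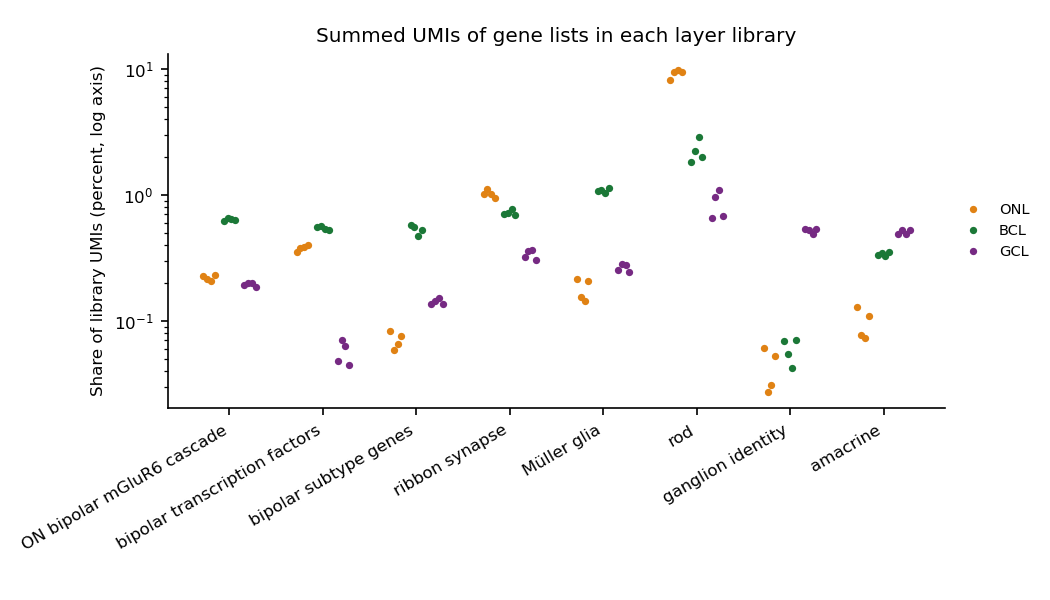
Summed UMIs of 8 gene lists as a percent of the library's UMIs, on a log axis, in each of the 4 ONL, 4 BCL and 4 GCL libraries. The mGluR6 cascade, bipolar subtype and Müller lists are highest in the BCL, the ribbon and rod lists are highest in the ONL with the BCL between ONL and GCL, and the ganglion identity and amacrine lists are highest in the GCL.

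Müller glia formed the other group of the BCL. Of 23 Müller genes listed and 21 tested, 18 were higher in the BCL and 0 on the GCL side, with a median log2 fold change of 2.04, and none of the 18 had an ONL mean above its BCL mean. Glul, the glutamine synthetase that clears transmitter glutamate, measured 4163, 4418, 4387 and 4727 CPM in the BCL and 1008, 1141, 1150.1 and 998 CPM in the GCL (2.04 ± 0.06, adjusted p = 7.6e-56). Rlbp1, the retinaldehyde-binding protein of the cone visual cycle, measured 1173, 1253, 1120.5 and 1144 CPM in the BCL and 108, 114, 81.1 and 78.9 CPM in the GCL (3.61 ± 0.10, adjusted p = 9.17e-57). The layers did not overlap for either gene, although both were also detected in every GCL library.

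Transport genes of Müller cells included the water channel Aqp4 (3.97 ± 0.24), the lipid transporter Abca8a (4.29 ± 0.14), carbonic anhydrases Car14 (3.63 ± 0.28) and Car2 (2.57 ± 0.14) and the glutamate transporter Slc1a3 (2.18 ± 0.15). Sox9 (1.68 ± 0.20), Sox8 (2.85 ± 0.31) and Lhx2 (2.26 ± 0.24), transcription factors of Müller glia, were higher in the BCL. Kcnj10, the potassium channel of Müller end feet, averaged 192 ± 57.2 CPM in the BCL and 189.5 ± 16.8 CPM in the GCL and was not called (0.02 ± 0.14, adjusted p = 0.943). Apoe (0.97 ± 0.12), Clu (0.93 ± 0.09) and Dkk3 (0.65 ± 0.11), secreted proteins of these glia, were called with smaller fold changes. Of 5 endothelial genes tested from 6 listed, 2 were higher in each layer. Kdr measured 805 ± 37.97 against 93.3 ± 15.5 CPM (3.11 ± 0.11) and Flt1 was also higher in the BCL (0.62 ± 0.20), Pecam1 (-1.90 ± 0.48) and Tek (-2.65 ± 0.80) were higher in the GCL, and Cdh5 was not called (-0.71 ± 0.44). The calls of Flt1 and Tek were lost with DESeq2, and that of Flt1 also without section 2 or 3.

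Of 13 Notch pathway genes, 11 were tested; 6 were higher in the BCL and 0 on the GCL side, with a median log2 fold change of 1.31. Notch1 (1.36 ± 0.17) and Notch2 (1.78 ± 0.20), the receptors, averaged 201 ± 32.1 and 157 ± 24.4 CPM in the BCL. Mfng, a fringe glycosyltransferase that tunes Notch ligands, reached 3.71 ± 0.58, and Lfng had 17 UMIs in the BCL and 3 in the GCL (ratio 17.2, interval 4.97 to 91.6). The ligands Jag1 (29.01 ± 15.7 and 28.3 ± 13.2 CPM), Jag2 and Dll1 were not called.

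Metabolic genes lay on either side. Of 20 glycolysis and lactate genes tested from 22 listed, 7 were higher in the BCL and 6 on the GCL side, with a median of 0.09. The shares were 35% and 30%, beside 17.4% and 22.1% of all tested genes. The BCL count was 3 with DESeq2 and 4 without section 4. Eno1, the widespread enolase, measured 645, 640.5, 680.3 and 622 CPM in the BCL and 336, 322, 376 and 363 CPM in the GCL (0.89 ± 0.09). Eno2, the neuronal enolase, measured 719, 752, 720.3 and 759 CPM in the BCL and 2056, 2066, 2099.9 and 2280.5 CPM in the GCL (-1.53 ± 0.07). The layers did not overlap for either gene, and the isoforms moved in opposite directions.

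The glucose transporter Slc2a1 was higher in the BCL (0.77 ± 0.15) and the neuronal Slc2a3 in the GCL (-1.13 ± 0.21). The lactate transporter Slc16a1 was higher in the BCL (1.85 ± 0.18), and Ldhb, the lactate dehydrogenase subunit of oxidative tissue, in the GCL at 22.1 ± 14.6 against 129 ± 16.3 CPM (-2.55 ± 0.28). Of the 7 genes higher in the BCL, 6 had ONL means above their BCL means, Eno1 being the exception. Of 12 cholesterol synthesis and uptake genes, 10 were tested, and all 10 were higher in the GCL, with a median of -1.44. Hmgcs1, which makes the substrate of HMG-CoA reductase, measured 59.1, 41.8, 65.03 and 71.2 CPM in the BCL and 146, 155, 149 and 194 CPM in the GCL (-1.44 ± 0.20), and Insig1, a sterol sensor partner, reached -2.17 ± 0.31. Of 17 antioxidant enzymes tested from 18 listed, 1 was higher in the BCL, Prdx6 (0.86 ± 0.16), and 5 in the GCL, among them thioredoxin reductase Txnrd1 (-1.89 ± 0.32) and glutathione reductase Gsr (-1.54 ± 0.28). The GCL share was 29.4% beside 22.1% of all tested genes, and 11 of the 17 were not called. With DESeq2, 3 were higher in the GCL.

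On the ganglion side, of 21 transcription factors listed and 19 tested, 16 were higher in the GCL and 2 in the BCL, with a median log2 fold change of -3.01. The BCL count was 1 with DESeq2 and without section 1, 3 or 4. Pou4f2, the POU factor BRN3B, measured 4.93, 0, 10.004 and 14.2 CPM in the BCL and 111, 109, 144 and 143 CPM in the GCL (-4.07 ± 0.36, adjusted p = 2.07e-18). Its BCL values came from 6 UMIs in all and lay below every GCL library. Pou4f1 reached -3.75 ± 0.26, and Pou4f3 had 184 UMIs in the GCL and 2 in the BCL (ratio 30.3, interval 8.28 to 252).

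Factors of ganglion cell subsets followed, among them Eomes (-3.61 ± 0.40), Tbx20 (-3.03 ± 0.40) and Ebf3 (-3.01 ± 0.22). Isl1, a LIM factor of ganglion, starburst amacrine and ON bipolar cells, went the other way. It measured 271, 213, 135 and 195 CPM in the BCL and 74.2, 67.3, 87.7 and 66.05 CPM in the GCL (1.47 ± 0.17, adjusted p = 1.27e-12), whereas its paralogue Isl2 was higher in the GCL (-3.36 ± 0.50). Of 7 LIM homeodomain factors, 5 were higher in the BCL and 2 on the GCL side (71.4% and 28.6%), and of 10 SOX factors, 5 and 1 (50% and 10%), beside 17.4% and 22.1% of all tested genes. Of 3 EBF factors tested, 0 were higher in the BCL and 2 on the GCL side.

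Ganglion identity genes were nearly all on this side: 17 of 18 were higher in the GCL and 0 in the BCL, with a median of -3.66, or -3.31 when the 3 genes without a BCL UMI are set to the floor of 3 UMIs. The RNA-binding proteins Rbpms and Rbpms2 reached -3.74 ± 0.18 and -4.17 ± 0.35, gamma-synuclein (Sncg) -3.86 ± 0.15, neuritin (Nrn1) -4.10 ± 0.24 and the adhesion molecule L1cam -3.24 ± 0.15. The nicotinic subunits Chrna6 and Chrnb3 were detected in every BCL library as well, at 99.97 ± 23.7 against 609.9 ± 51.3 CPM and 154 ± 38.2 against 821 ± 53.7 CPM. Opn4, melanopsin of the photosensitive ganglion cells, had 109 UMIs in the GCL and 3 in the BCL (ratio 11.98, interval 3.99 to 59.0). Bdnf, with 22 and 6 UMIs, was not called.

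Genes of the axonal cytoskeleton stood on the GCL side: 26 of 30 genes tested from 31 listed were higher in the GCL and 0 in the BCL, with a median of -1.50. Nefh, the heavy neurofilament subunit, measured 163, 158, 185 and 185 CPM in the BCL and 1861, 1790.0, 2500.4 and 2519 CPM in the GCL (-3.64 ± 0.09, adjusted p = 5.2e-59). Per kb of annotated transcript, Nefh averaged 543 CPM and Nefm 116 CPM in the GCL, against 43.2 and 7.70 CPM in the BCL. Nefl reached -3.75 ± 0.11, and internexin (Ina) -1.50 ± 0.10.

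Tubb3, the neuronal beta tubulin, reached -2.98 ± 0.14, stathmin 2 (Stmn2) -3.54 ± 0.16, the microtubule proteins Map1a -2.37 ± 0.07 and Map1b -1.48 ± 0.06, and tau (Mapt) -1.02 ± 0.11. Map2, the dendritic member, averaged 654 ± 62.3 and 646 ± 35.4 CPM and was not called (0.02 ± 0.08). Of 9 intermediate filaments, Vim, the glial vimentin, was the 1 higher in the BCL (1.92 ± 0.16), and 7 were higher in the GCL. Of 11 tubulins, 0 were higher in the BCL and 8 on the GCL side. Of 5 collapsin response mediators tested, 4 were higher in the GCL, led by Dpysl2 (-0.59 ± 0.06), and Crmp1 was not called.

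Of 22 axonal transport genes, 15 were higher in the GCL and 2 in the BCL, with a median of -0.73. The BCL count was 1 with DESeq2 and without section 3. Kif5a, the neuronal kinesin heavy chain, averaged 188 ± 37.97 CPM in the BCL and 1183 ± 55.1 CPM in the GCL (-2.65 ± 0.10), while Kif5b (86.8 ± 6.11 and 187 ± 26.5 CPM) and Kif5c (251 ± 13.9 and 535 ± 21.1 CPM) had smaller ratios. Kif1a, the motor of vesicle precursors, reached -0.83 ± 0.06, and its paralogue Kif1b averaged 1379 ± 138 and 1411 ± 46.7 CPM and was not called. Kif21b was higher in the BCL (1.44 ± 0.12), with a higher ONL than BCL mean. The dynein intermediate chain Dync1i1 (-2.28 ± 0.29) and the light chains Klc1 (-1.24 ± 0.11) and Klc2 (-1.66 ± 0.15) stood with Kif5a. Of 39 Rab GTPases, 0 were higher in the BCL and 13 on the GCL side, led by Rab6b (-2.79 ± 0.10). The shares were 0% and 33.3%, beside 17.4% and 22.1% of all tested genes.

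Genes of spike generation stood on the same side. Of 28 genes of spike initiation and nodes, 26 were higher in the GCL and 0 in the BCL, with a median of -2.13. Scn1a, a sodium channel pore, measured 24.6, 9.28, 40.02 and 28.5 CPM in the BCL and 534, 469.5, 479.9 and 448 CPM in the GCL (-4.23 ± 0.19, adjusted p = 5.33e-38). Scn2a (-2.88 ± 0.17) and Scn8a (-2.42 ± 0.14) followed, with the beta subunit Scn2b (-2.35 ± 0.16). Ank3, the ankyrin of the axon initial segment, averaged 863 ± 55.6 and 2494 ± 40.7 CPM (-1.53 ± 0.07), and Nfasc, its neurofascin partner, 591 ± 42.2 and 602 ± 13.8 CPM without a call. Fgf13, a sodium channel partner, averaged 79.001 ± 24.5 and 62.8 ± 5.23 CPM and was not called, unlike Fgf12 (-2.60 ± 0.15).

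Of 60 potassium channel genes tested, 30 (50%) were higher in the GCL and 8 (13.3%) in the BCL, with a median of -1.05. The M-current subunit Kcnq3 (-3.05 ± 0.25), the axonal Kcna2 (-2.44 ± 0.13) and the fast-spiking Kcnc1 (-1.90 ± 0.12) and Kcnc2 (-3.03 ± 0.22) were higher in the GCL. On the BCL side stood Kcnma1, the large-conductance channel, at 1245 ± 61.6 against 272 ± 15.05 CPM (2.20 ± 0.08), Kcnh6 (3.72 ± 0.24), the leak channel Kcnk3 (2.30 ± 0.16) and Kcna5 (2.10 ± 0.19). Of 22 voltage-gated calcium channel genes, 6 were higher in the BCL and 12 on the GCL side (27.3% and 54.5%, beside 17.4% and 22.1% of all tested genes).

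Ion pump isoforms differed between the layers too. Atp1b2, a sodium pump beta subunit of glia and photoreceptors, was higher in the BCL (3169.7 ± 139 against 1038 ± 178 CPM, 1.62 ± 0.06) and Atp1b1 in the GCL (213 ± 66.6 against 1379.7 ± 107 CPM, -2.70 ± 0.10). The plasma membrane calcium pump Atp2b1 was higher in the BCL (1.21 ± 0.11), and Atp2b2 (-2.67 ± 0.10) and Atp2b4 (-2.57 ± 0.17) in the GCL. Atp1b2 had a higher ONL than BCL mean, and Atp2b1 had not.

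Amacrine genes stood mostly on the GCL side: of 27 listed and 23 tested, 16 were higher there and 3 in the BCL, with a median of -1.90. Calb2, the calcium buffer calretinin of amacrine and ganglion cells, measured 78.8, 102, 85.04 and 209 CPM in the BCL and 1856, 1877, 1577 and 2086 CPM in the GCL (-3.96 ± 0.11). Gad1, which makes GABA, averaged 93.7 ± 17.2 and 469.7 ± 56.2 CPM (-2.32 ± 0.14).

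Cholinergic genes of starburst amacrine cells, Chat (-1.92 ± 0.45) and Slc5a7 (-2.07 ± 0.48), and the peptide precursor Cartpt (-3.36 ± 0.27) were higher in the GCL. Slc18a3, the vesicular acetylcholine transporter, had 104 UMIs in the GCL and 2 in the BCL, and the enkephalin precursor Penk 101 and 2, ratios of 17.1 (interval 4.63 to 143) and 16.6 (interval 4.49 to 139). Prox1, a factor of horizontal, bipolar and AII amacrine cells, went the other way and measured 1685, 1731, 1721 and 1429 CPM in the BCL and 93.03, 144, 122 and 103 CPM in the GCL (3.84 ± 0.09). Megf10, a receptor for starburst and horizontal cell spacing, was higher in the BCL too (3.44 ± 0.27). The factor Tfap2b and the glycine transporter Slc6a9, genes of amacrine cells that also line the inner edge of the inner nuclear layer, averaged 270.2 ± 27.2 and 251 ± 20.1 CPM and 37.3 ± 3.76 and 42.5 ± 13.2 CPM, without a call.

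Receptors for inhibition had members on either side. Of 23 GABA and glycine receptor genes listed, 19 were tested. Of these, 5 (26.3%) were higher in the BCL and 12 (63.2%) on the GCL side, with a median of -1.19. The shares of all tested genes were 17.4% and 22.1%. Gabrr1, the GABA receptor subunit of bipolar terminals, measured 232, 357, 250.1 and 256 CPM in the BCL and 5.39, 9.62, 8.27 and 1.83 CPM in the GCL (5.36 ± 0.24, adjusted p = 5.19e-38). Gabrr2 reached 4.42 ± 0.29, and the glycine receptor Glra1 (1.84 ± 0.20) was higher in the BCL. In the GCL, Gabra2 (-2.13 ± 0.24), Gabrg3 (-3.93 ± 0.30), Glra2 (-2.41 ± 0.42) and Glra3 (-2.03 ± 0.48) were higher. None of the 5 BCL genes had an ONL mean above its BCL mean.

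Of 25 glutamate receptor genes tested from 26 listed, 4 were higher in the BCL and 16 on the GCL side, with a median of -1.57. The shares were 16% and 64%, beside 17.4% and 22.1% of all tested genes, so the BCL share was near background. The BCL genes were Grm6, Grik1, Grm5 (2.78 ± 0.24) and the delta receptor Grid1 (0.97 ± 0.24). NMDA receptor subunits stood on the GCL side, with the obligatory Grin1 at -1.66 ± 0.16, Grin2a at -3.62 ± 0.26, Grin2b at -1.57 ± 0.14 and Grin2d at -2.97 ± 0.32. The AMPA subunits Gria3 (-2.09 ± 0.28) and Gria4 (-1.31 ± 0.15) were higher in the GCL, and Gria1 and Gria2 were not called, at 62.8 ± 30.04 against 70.2 ± 5.17 CPM and 97.7 ± 9.02 against 121 ± 19.1 CPM. Of 7 nicotinic receptor genes tested, 0 were higher in the BCL and 4 on the GCL side.

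Guidance and adhesion families had members on either side. Of 5 Slit and Robo genes, 1 was higher in the BCL and 3 on the GCL side, and of 11 netrins and netrin receptors 3 lay on each side (27.3%, beside 17.4% and 22.1% of all tested genes). Slit2, a repellent ligand, averaged 540.3 ± 158 CPM in the BCL and 144 ± 20.5 CPM in the GCL (1.92 ± 0.12), and its receptor Robo2 193 ± 31.7 and 451 ± 18.9 CPM (-1.23 ± 0.12). Of 19 ephrin and Eph genes, 3 were higher in the BCL, Epha7 (2.76 ± 0.30) and Epha3 (2.57 ± 0.42) among them, and 6 in the GCL (15.8% and 31.6%). Of 26 semaphorins and plexins, 5 were higher in the BCL, led by Plxna4 (2.23 ± 0.18), and 10 in the GCL (19.2% and 38.5%). The BCL shares of both families are near the 17.4% of all tested genes, and the GCL shares stand beside 22.1%. Of 15 cadherins, 4 were higher in the BCL, led by Cdh11 (1.71 ± 0.18) and Cdh8 (1.82 ± 0.24), and 5 in the GCL, led by Cdh13 (-3.95 ± 0.34) and Cdh6 (-3.34 ± 0.35), shares of 26.7% and 33.3%. Nrxn3 was the 1 gene of 6 neurexins and neuroligins higher in the BCL (1.59 ± 0.08), and Nrxn2 was higher in the GCL (-1.31 ± 0.11). Of 56 protocadherins, 6 were higher in the BCL and 13 on the GCL side, shares of 10.7% and 23.2%, below and near those of all tested genes.

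Splicing and stability factors lay on either side. Of 29 neuronal RNA-binding genes tested from 31 listed, 8 were higher in the BCL and 12 on the GCL side, with a median of -0.25. The shares were 27.6% and 41.4%, beside 17.4% and 22.1% of all tested genes. Celf3 (2.73 ± 0.11), Musashi 1 (Msi1, 1.94 ± 0.08) and Khdrbs3 (1.78 ± 0.13) were higher in the BCL, and Celf4 in the GCL (-1.12 ± 0.11). Of the 8 genes higher in the BCL, 3 had ONL means above their BCL means, Msi1 among them. All 3 RBFOX splicing factors were higher in the GCL, at -3.41 ± 0.19 for Rbfox1, -1.49 ± 0.13 for Rbfox2 and -2.72 ± 0.25 for Rbfox3. The neuronal ELAV genes Elavl2 (-3.44 ± 0.35), Elavl3 (-1.75 ± 0.14) and Elavl4 (-3.05 ± 0.27) were higher in the GCL, and the ubiquitous Elavl1 averaged 215 ± 23.02 and 207 ± 31.7 CPM without a call.

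**Figure D5:**
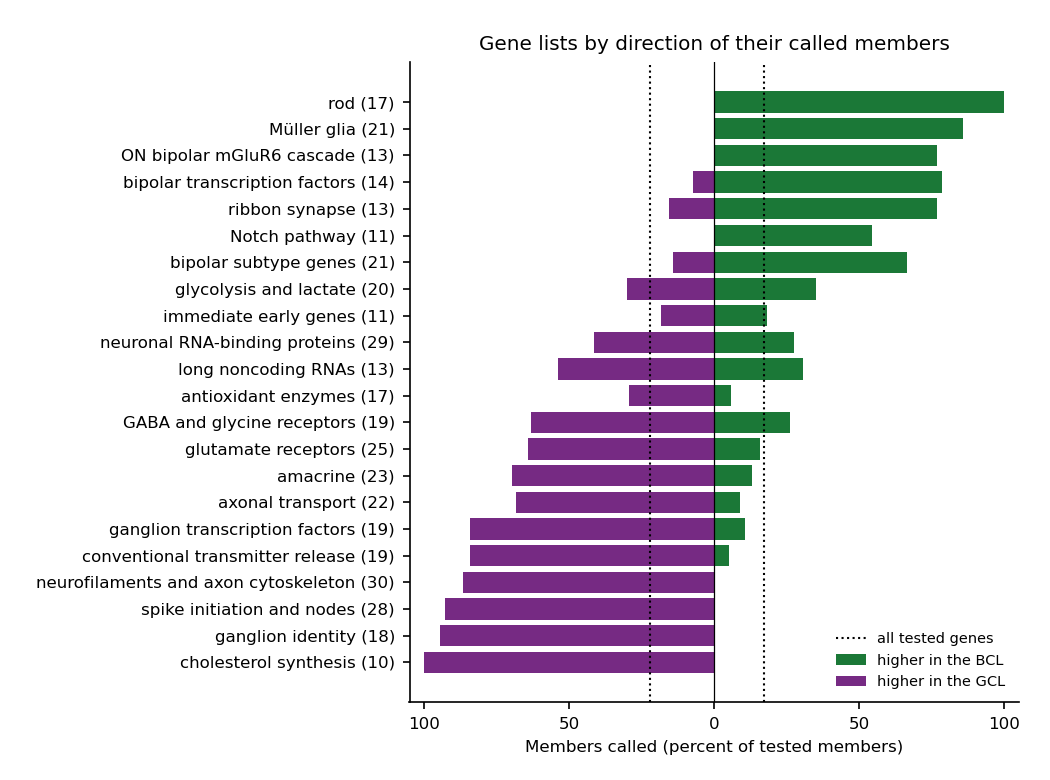
Percent of tested members of each list of 10 or more tested genes that were called higher in the BCL (green, to the right) or in the GCL (purple, to the left), with the number tested in parentheses. Dotted lines mark 17.4% and 22.1%, the shares of all tested genes. The rod, Müller, mGluR6, bipolar factor and ribbon lists reach far to the right, and the cholesterol, ganglion identity, spike, cytoskeleton and conventional release lists far to the left.

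Other cell types entered the layers unevenly. Astrocyte genes, whose cells lie along the nerve fibres, held 0.00258 to 0.00643% of UMIs in the BCL libraries and 0.0236 to 0.0315% in the GCL libraries, and 4 of 5 were higher in the GCL and 0 in the BCL. Gfap measured 9.85, 9.28, 15.01 and 18.98 CPM in the BCL and 112, 176, 194 and 154 CPM in the GCL (-3.55 ± 0.29). S100b had 0 UMIs in the BCL and 50 in the GCL, a ratio of 5.49 at a floor of 3 UMIs. All 3 pericyte genes tested from 4 listed were higher in the GCL, among them Rgs5 (-1.86 ± 0.14) and the contractile Acta2. Acta2 had 80, 84, 5 and 71 UMIs in the GCL libraries against 3 in the whole BCL, and in GCL library 3 its level of 8.27 CPM was below the 9.28 CPM of BCL library 2. Of 8 microglial genes, 5 were tested and 2 were higher in the GCL, Csf1r (-1.69 ± 0.39) and Cx3cr1 (-1.99 ± 0.64), the second of which lost its call with DESeq2 and without section 1. The part of these cells in the GCL results was not tested. Of 9 cone genes, 7 were tested and 4 were higher in the BCL, led by the cone opsin Opn1sw (1.18 ± 0.20), all 4 with higher ONL than BCL means, and 2 of them were called with DESeq2 and without section 1.

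Mitochondrially encoded RNA held a mean of 6.30% of UMIs in the BCL and 9.04% in the GCL, and 8 of 13 such genes were higher in the GCL and 1 in the BCL. Of 64 nuclear respiratory chain genes, 0 were higher in the BCL and 13 on the GCL side, a share of 20.3%, close to the 22.1% of all genes. Of 26 ribosomal protein genes tested, edgeR called 0 in either direction. Wherever edgeR called 0 members of a list or family in a direction, DESeq2 called 0 as well, and 0 members had an unadjusted p under 0.05 in that direction, apart from 1 member each of the mGluR6 cascade, the nuclear respiratory chain and the Rab GTPases. The median annotated length was 6219 bases for genes higher in the BCL, 5320 for genes higher in the GCL, 4705 for genes not called and 5095 for all tested genes.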

How the data were processed

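The authors deposited a table of UMI counts per gene and library. Per the study's methods, UMI-tools (1.1.1) took barcodes and UMIs from the reads, which came from randomly primed cDNA, STAR (2.7.9a) mapped them to mm39 with the GENCODE mouse annotation, reads with several positions were dropped, featureCounts assigned exonic reads to genes, and UMIs were collapsed per gene. SAMtools (1.9) is named too, and 2 rRNA genes were removed. The supplement states that featureCounts was run with its default settings and names no strand-specific counting. Dropping reads with several positions lowers the counts of genes with near-identical copies.

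The counts were tested as deposited with edgeR (4.0.16, R 4.3.3): genes with 20 or more UMIs over the 8 libraries, TMM scaling, a quasi-likelihood fit with section and layer as terms, and Benjamini-Hochberg adjustment at 0.05 over all genes tested. The block follows the design, in which both layers of a section share tissue and well. Deviations from the layer means correlated at 0.0125 to 0.0428 between libraries of the same section and at -0.0374 to 0.0182 between libraries of different sections. No replicates agreed within sampling noise (chi-square per degree of freedom, 1.07 to 1.64). In counts simulated for these 10785 genes, with 200 genes changed, the fit recovered 49% of 2-fold and 82% of 4-fold changes, with 3 false calls of 134. The simulation held far fewer changed genes than were called in the data, and no section effect. Its rates therefore need not hold for the data.

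The members and lists were chosen with earlier results of these data known. Genes were chosen for naming by a rule: the 4 layer markers, the 12 genes per direction with the largest change (called, mean of at least 50 CPM, same direction in 4 sections), up to 5 members per direction and list by smallest adjusted p, members against their list's majority or near 0, and whole lists of up to 5 genes. Outside this rule, 43 genes were named after their values were seen. Counting intervals are exact at 95%, and they and the floor of 3 UMIs cover counting error only. Ratios at the floor take the count of the higher layer as it stands, so they are not lower bounds. Gene positions are from GENCODE on GRCm39, found for 499 of 500 genes. DESeq2 (1.42.0), other scalings and filters, other library sets and single-section omissions were alternatives. Gene lengths, types and identifiers came from a cell line table, whose counts were not used here, nor was the amacrine table, and a few genes are not reported here. Figures used matplotlib (3.10.9).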

Additional observations from a re-analysis of the deposited data

Results flagged for a closer look

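In 6 of 118 groups of 4 libraries, the highest or lowest library stood apart from the other 3 by more than Dixon's criterion allows, and chance gives about 1 in 20 such groups. Cplx1 was highest in BCL library 4, at 166 CPM, and Prox1 was lowest in the same library, at 1429 CPM. The Notch list held its lowest GCL share in library 3, at 0.0183% of UMIs. The ganglion transcription factor list was highest in GCL library 1, at 0.190%, and the conventional release list in GCL library 4, at 1.65%. The pigment epithelium list was lowest in BCL library 3, at 0.00661%. Neither the call nor the direction of Cplx1 or Prox1 changed under any alternative tried.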

How the results depend on the processing

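Calls were compared over the alternatives to the 4262 reported, 1879 of them higher in the BCL. DESeq2 called 2547 genes, 1112 higher in the BCL and 1435 on the GCL side, all of them among the edgeR calls. Asking for at least 2-fold left 2661, with 1095 and 1566. Without the section block (no replicate block), edgeR called 4232 genes, 4178 of them shared. Leaving out 1 section at a time gave 3707 to 3750 calls, 1553 to 1640 higher in the BCL and 2110 to 2190 in the GCL. Keeping only BCL calls with an ONL mean below their BCL mean left 931 of 1879, a choice added after seeing the data. The same holds for thinning every library to 193869 UMIs, which left 8651 genes and 3310 calls. Without the count filter all log2 values shifted by -0.13 at the median, and the BCL share of the calls was 36.0% instead of 44.1%, against 48.0% of 3535 calls with edgeR's default filter and 47.0% after thinning. Of 500 genes chosen for naming, 79 lost their call with DESeq2, 94 under the 2-fold minimum and 7 without the block, and no call changed direction under any of these settings. Of the genes the text gives, those lost with DESeq2 were Cx3cr1, Egr1, Flt1, Jun and Tek, and those lost without a section were Cx3cr1, Egr1, Flt1 and Jun. Of 62 counts of list members called in a direction, 11 moved by over 1.5 times with DESeq2, 12 under the 2-fold minimum, 7 with no filter, 7 with edgeR's default filter, 8 after thinning and 1 to 5 without a section. With DESeq2 these were counts of the glycolysis, antioxidant, ganglion factor, axonal transport, immediate early, cone, endothelial, microglial and erythrocyte lists, and without a section those of the same lists apart from the antioxidant one, and of the pigment epithelium list. The shallow BCL limits genes of few UMIs: 86 tested genes had no BCL UMI and 2 no GCL UMI.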

Other observations

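Long noncoding RNAs, proteostasis genes and zinc fingers lay outside the groups above. Of 13 long noncoding RNAs tested, 7 were higher in the GCL and 4 in the BCL. Meg3, a maternally expressed transcript of neurons, measured 369.5, 450.2, 330.1 and 475 CPM in the BCL and 1254, 867, 925 and 1009 CPM in the GCL (-1.31 ± 0.09), and Miat, a nuclear transcript also known from the retina, reached -3.31 ± 0.44. Malat1, a nuclear speckle transcript, was higher in the BCL, at 2816 ± 431 against 1609.6 ± 253 CPM (0.81 ± 0.06). Some of the other noncoding genes overlap coding genes on the opposite strand, and their counts are uncertain because no strand-specific counting is stated.

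Of 243 Zfp genes tested, 16.9% (41 genes) were higher in the BCL, and 4.53% (11 genes) in the GCL, against 17.4% and 22.1% of all tested genes. Zfp385b averaged 381 ± 57.6 and 73.9 ± 21.1 CPM (2.37 ± 0.14), and Zfp385a, at 1367 ± 184 and 591 ± 48.4 CPM (1.20 ± 0.07), had a higher ONL mean of 2273 CPM. On the GCL side stood Zfp503 (-2.13 ± 0.37) and Zfp423 (-1.29 ± 0.31). Of 52 heat shock and cochaperone genes, 12 were higher in the GCL (23.1%, near the 22.1% of all tested genes) and 3 in the BCL, all 3 with ONL means above their BCL means on the 12-library scale. Hsp90ab1, a cytosolic chaperone, averaged 621 ± 56.6 and 1359.8 ± 81.9 CPM (-1.13 ± 0.08), and Hspb6, a small heat shock protein higher in the BCL (1.30 ± 0.18), had an ONL mean of 631 CPM, above its BCL mean. Of 11 immediate early genes, 2 were higher in each layer (18.2%, near the 17.4% and 22.1% of all tested genes): Btg2 (1.37 ± 0.33) and Jun in the BCL, and Nr4a2 (84 against 2 UMIs) and Egr1 in the GCL, with the calls of Jun and Egr1 lost under DESeq2 and that of Jun also without section 3 or 4. Of the 422 GCL UMIs of Egr1, 210 were in GCL library 3, and without section 3 the log2 fold change of Egr1 was -0.26 and its call was lost (edgeR adjusted p = 0.389).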
